A study of Rattus norvegicus with 46 samples.

Results

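The genes described here are 44 genes of mitosis and cell division, followed in rat skin before, during and after a course of radiation. They were chosen by symbol, from knowledge of what their proteins do in a dividing cell. Earlier results of these data were known at that point, so shares of members set beside shares of all features are a description. Of the 44, 36 have an annotated feature among the 15037 genes with a symbol on the array. Melk, Top2a, Ncapg, Ncaph, Cenpe, Bub1b, Kif4a and Anln have none and are named only. The 36 fall into 8 roles: the kinase engine that drives entry into mitosis (8 genes), chromosome structure (1), the kinetochore (5), the spindle checkpoint (4), spindle motors and microtubule proteins (6), chromosomal passengers (3), the anaphase and ubiquitin machinery (5) and cytokinesis (4).

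Transcripts were measured on 46 Clariom S arrays of 5 mm punches of abdominal skin, taken in sequence from 9 Sprague-Dawley rats. All irradiated rats received a 6-MeV electron beam, 40 Gy in 4 fractions of 10 Gy over 8 days, with DMSO vehicle alone (3 arrays per day) or with RTA-408 in DMSO (3 arrays per day), injected on days -7, -5, -3 and 0. Unirradiated rats received DMSO vehicle (2 arrays per day), and 6 of the 9 rats also gave a baseline biopsy on day -10. Biopsies followed on days -4, 1, 3, 7 and 14, and that of day -4 fell within the radiation course. RTA-408, also known as omaveloxolone, activates the stress-response transcription factor NRF2. Arrays of an arm on different days come from the same rats, except that unirradiated replicate 2 changes from rat 318 to rat 317 between days 3 and 7, and all arms are compared with the same 6 baseline arrays. Every skin biopsy mixes epidermis, hair follicles, connective tissue, vessels and in part muscle, so fewer dividing cells and less of a transcript per cell cannot be told apart in these samples.

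In a dividing cell, CDK1 bound to cyclins A and B starts mitosis, condensed chromosomes are attached through kinetochores to spindle microtubules, and the spindle checkpoint holds the cell until every chromosome is attached. The anaphase-promoting complex with CDC20 then marks securin and cyclin B for destruction, sister chromatids part, and the cell is pinched apart in cytokinesis. The genes of this programme are switched on together late in the cell cycle, by FOXM1, B-MYB and the MuvB complex, and are shut down by the p53, p21 and DREAM pathway after DNA damage. In skin, the dividing cells are mainly basal keratinocytes and the matrix cells at the base of growing hair follicles.

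Values are the deposited log2 signals, and a difference is one of group means on that log2 scale, with its standard error from a linear model fitted to all arrays. A gene passed when its p from limma, adjusted by Benjamini-Hochberg over 23188 features, was under 0.05. The median signal of an array was 6.84 to 6.95, r between arrays of a group ran from 0.927 to 0.990, and muscle transcripts differed widely between biopsies, with a marker mean from 7.09 to 18.03 among the arrays of day -4. By the signals of 2 spike-in controls the arrays part into 3 sets. Set I (18 arrays) holds all baseline arrays and the unirradiated arrays of days -4 and 1, set III (18 arrays) holds the unirradiated arrays of days 3, 7 and 14, and set II (10 arrays) holds 1 array of each irradiated arm on each day. No array of days 3, 7 or 14 lies in the same set as the baseline arrays, so for those days change from baseline and set cannot be told apart without a model of the set.

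As a whole, the 36 genes were lower in irradiated than in unirradiated skin on day -4 and low in all 3 arms on day 1. In every irradiated array of day 3 they were below the baseline range. They were within or above that range in 11 of the 12 irradiated arrays of days 7 and 14. Days 3, 7 and 14 lie in other spike-in sets than baseline, and their medians against baseline with the set in the model are given with that comparison. Their mean in the 6 baseline arrays ranged from 7.90 to 9.09, with a median of 8.83. On day -4 it was 8.97 and 9.34 in unirradiated skin, 6.68, 8.08 and 6.87 in irradiated vehicle skin, and 8.62, 7.29 and 6.31 in irradiated skin with RTA-408. Every array of irradiated skin was thus below both unirradiated arrays, and in each irradiated arm 1 array stood well above the other two: vehicle replicate 2, the highest of its group for 35 of 36 genes, and RTA-408 replicate 1, also for 35 of 36. Both of those arrays, at 8.08 and 8.62, lay within the baseline range, and the unirradiated array at 9.34 lay above it. Their rats, 321 and 324, had read 7.94 and 9.09 at baseline, so rat 321 was not lower than before radiation. Rats 322 and 323, of vehicle replicate 1 and RTA-408 replicate 2, had read 8.88 and 8.83 at baseline. Rats 320 and 303 have no baseline array. On day 1 the mean was 7.40 and 7.35 in unirradiated, 7.65, 7.39 and 7.19 in irradiated vehicle and 6.72, 7.35 and 7.46 in RTA-408 skin. All 8 arrays of that day lay below the lowest baseline array, with the arms overlapping.

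On day 3 the means were 7.75 and 8.86 in unirradiated skin, 7.60, 7.72 and 7.47 with irradiation and vehicle, and 7.71, 7.54 and 7.33 with RTA-408. All 6 irradiated arrays were below the lower unirradiated array, although the 2 unirradiated arrays differed widely. Their rats, 319 and 318, had read 7.90 and 8.84 at baseline, in another spike-in set. On day 7 they were 8.72 and 7.45, then 8.70, 8.77 and 7.84, then 8.62, 8.62 and 8.41, in the same order of arms. On day 14 they were 9.12 and 8.86, then 9.14, 8.27 and 8.20, then 8.40, 8.47 and 8.70. From day 7 on every irradiated array but vehicle replicate 3 of day 7 was within or above the baseline range, and on day 7 one unirradiated array lay within it and the other below it.

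**Figure D1:**
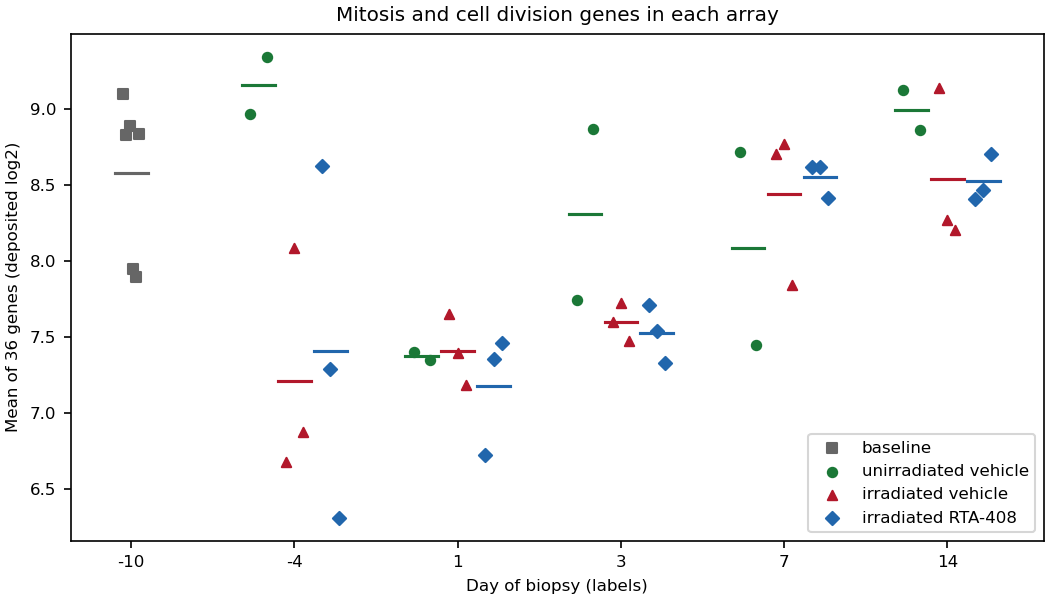
The mean deposited log2 signal of the 36 measured genes (vertical axis) in each array, by day of biopsy (horizontal axis, evenly spaced) and arm; points are arrays and short lines group means. The irradiated arrays of day -4 sit below 8.97, the lower unirradiated array of that day, and on day 1 all arms sit between 6.72 and 7.65.

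The radiation comparison set irradiated vehicle skin against unirradiated vehicle skin on each day, with 3 arrays against 2. On day -4, 27 of the 36 genes were lower, 0 were higher and 9 did not pass, where 4.19% of all features were called lower. The differences of the 36 ran from -3.69 for Mki67 to -0.10 for Aurka, with a median of -2.0 against a median of 0.07 over all features (-1.93 when the 4 genes at the negative control level in irradiated skin stand at their bound), and 33 of 36 had all irradiated arrays below both unirradiated arrays, as 18.3% of all features did. The 4 genes with a bound are those with all irradiated vehicle arrays at the negative control level. By array, 16, 4 and 15 of the 36 genes were at or below it in vehicle replicates 1, 2 and 3. The unirradiated arrays had 3 and 0 such genes, and RTA-408 replicates 1, 2 and 3 had 2, 5 and 20. Differences of these genes rest in part on values at that level. The unirradiated arrays of day -4 were themselves above baseline in mean for 35 of the 36 genes, with a median of 0.56. None of these passed, where 0.0173% of all features were called. Against baseline, the median of irradiated vehicle skin on day -4 was -1.41. The count of 27 rests on few arrays. It was 8, 31 and 12 without irradiated vehicle replicates 1, 2 and 3, and 3 and 0 without unirradiated replicates 1 and 2, where a single array is left and is assumed to vary like the other groups. The median ran from -2.50 to -1.69 without single arrays. Aurka turned above zero without vehicle replicate 3 (to 0.19) and without unirradiated replicate 1 (to 0.02), and the other 35 genes were below zero without any single array. Within spike-in set I, which leaves out vehicle replicate 1, 2 arrays against 2 gave a median of -1.76, with 36 genes below zero and 8 that passed.

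All 5 kinetochore genes, all 4 cytokinesis genes and 7 of 8 genes of the kinase engine passed. So did the chromosome protein gene Mki67, 4 of 6 spindle genes, 3 of 5 genes of the anaphase machinery, 2 of 4 checkpoint genes and 1 of 3 chromosomal passengers. Median differences by role were -2.53 for the kinase engine, -2.31 for the kinetochore, -2.18 for spindle proteins, -1.89 for cytokinesis, -1.72 for the checkpoint, -1.68 for the passengers and -1.35 for the anaphase machinery. Differences between roles were not tested.

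**Figure D2:**
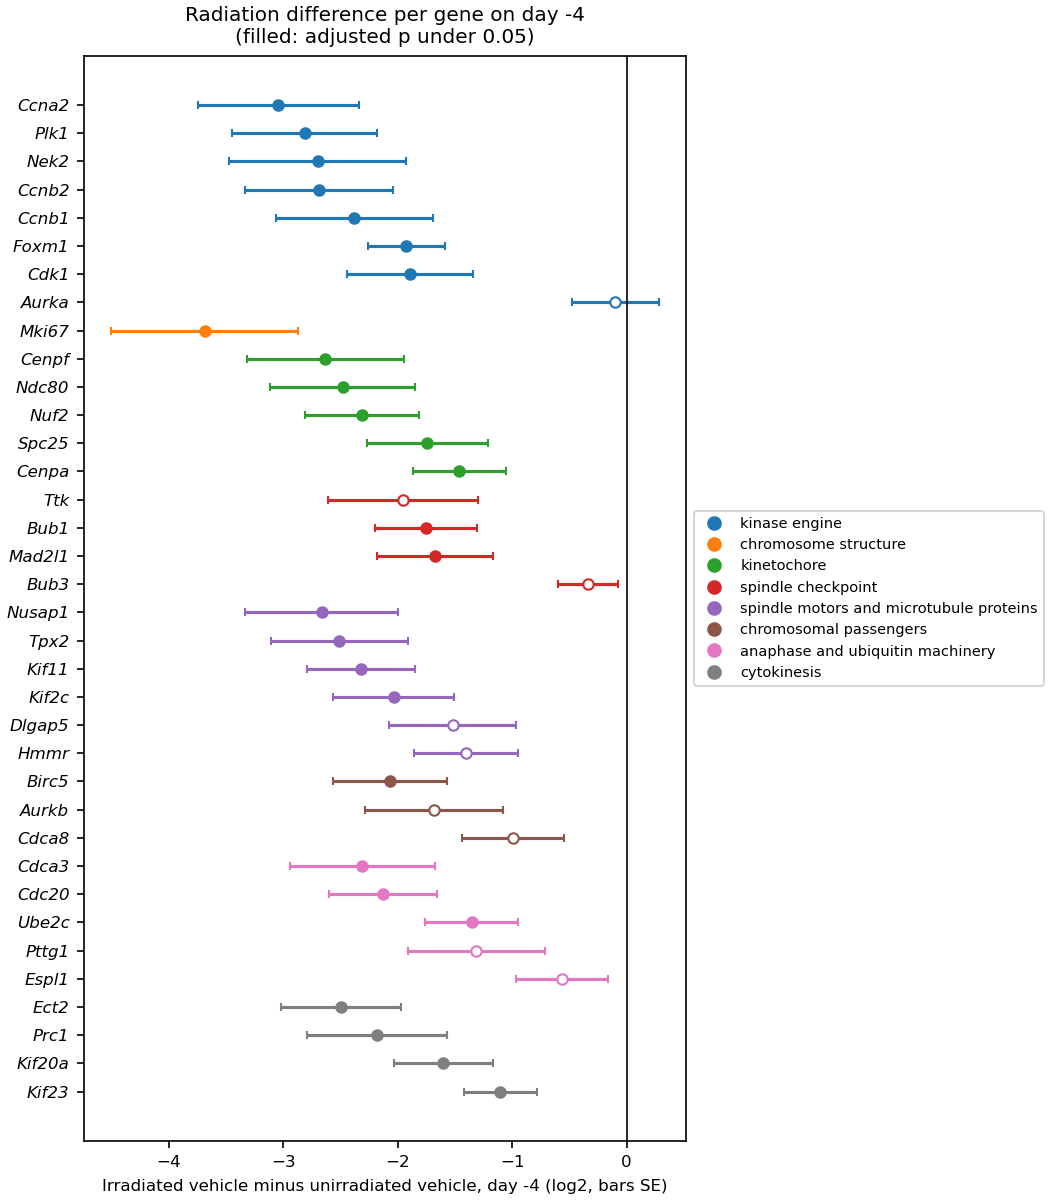
The difference between irradiated and unirradiated vehicle skin on day -4 for each of the 36 genes (horizontal axis, log2, bars 1 SE), ordered and coloured by role; filled points have an adjusted p under 0.05. All points are below zero, 27 are filled, and the open points include Aurka at -0.10 and Bub3 at -0.34.

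Mki67 (feature TC0100006841.rn.2) encodes Ki-67, the coat protein of mitotic chromosomes used everywhere as a proliferation marker. At baseline it ranged from 11.76 to 13.59, with a median of 13.27. On day -4 it read 13.87 and 13.87 in unirradiated skin, 8.56, 11.87 and 10.12 in irradiated vehicle skin and 12.83, 10.38 and 8.18 with RTA-408. The irradiated and unirradiated arrays did not overlap, and the difference for vehicle was -3.69 ± 0.82 (SE; limma, adjusted p = 0.00616), the largest of the 36 genes. On day 1 the values were 11.13 and 11.26, then 11.04, 10.17 and 10.93, then 9.46, 10.30 and 10.31, all under the lowest baseline array. On day 3 they were 12.14 and 13.30, then 10.69, 11.27 and 11.71, then 11.65, 10.85 and 10.47. The irradiated arrays of day 3 were all below the unirradiated ones, but the vehicle difference of -1.49 did not pass (limma, adjusted p = 0.437). On day 7 Mki67 read 13.08 and 11.15, then 12.91, 12.57 and 11.19, then 12.67, 12.51 and 12.18, and the arms overlapped. On day 14 it read 13.87 and 13.67, then 13.41, 12.53 and 12.53, then 12.39, 12.33 and 13.13, with every irradiated array under both unirradiated arrays and a vehicle difference of -0.95 that did not pass (limma, adjusted p = 0.629).

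In the kinase engine, Cdk1 (TC2000000542.rn.2) encodes the kinase that triggers mitosis and Ccnb1 (TC0200002747.rn.2) its partner cyclin B1. Cdk1 ranged from 7.32 to 8.50 at baseline, with a median of 8.13. Its values of day -4 were 8.15 and 8.53 in unirradiated skin, 5.93, 7.59 and 5.81 in irradiated vehicle skin and 7.89, 6.82 and 5.42 with RTA-408. All irradiated arrays were below the unirradiated pair, vehicle replicate 2 and RTA-408 replicate 1 being nearest to it, and the vehicle difference was -1.90 ± 0.55 (SE; limma, adjusted p = 0.0289). On day 1 Cdk1 read 6.74 and 6.69 without radiation, 7.30, 7.48 and 6.24 with vehicle and 6.20, 7.01 and 7.36 with RTA-408. Here the unirradiated pair lay inside the range of the irradiated arrays and below every baseline array. On day 3 the values were 6.93 and 8.23, then 7.14, 7.42 and 6.81, then 7.06, 7.31 and 7.16. On day 7 they were 7.52 and 6.49, then 7.85, 8.38 and 7.29, then 8.17, 8.53 and 8.08. All 3 RTA-408 arrays of day 7 were above both unirradiated arrays. By day 14 the values were 8.68 and 7.73, then 8.76, 7.68 and 7.30, then 7.85, 8.22 and 8.03, with the arms overlapping.

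Ccnb1 followed the same course. Baseline values ranged from 8.45 to 10.16, with a median of 9.74. On day -4 cyclin B1 read 9.63 and 10.00 without radiation, 6.86, 8.87 and 6.58 with radiation and vehicle and 9.53, 7.50 and 6.76 with RTA-408, a vehicle difference of -2.38 ± 0.68 (SE; limma, adjusted p = 0.0277). No irradiated array reached the unirradiated pair, although RTA-408 replicate 1 came within a small margin of it. Day 1 gave 7.61 and 7.81, then 8.26, 7.94 and 7.20, then 7.25, 8.30 and 8.10, and day 3 gave 8.02 and 9.78, then 8.25, 8.66 and 7.76, then 8.42, 8.68 and 8.10. The 2 unirradiated arrays of day 3 stood far apart and enclosed most of the irradiated ones. Day 7 gave 8.90 and 7.19, then 9.74, 9.61 and 8.00, then 10.02, 9.54 and 9.63, and day 14 gave 9.96 and 9.46, then 10.03, 8.43 and 8.61, then 9.42, 9.26 and 9.22. On day 7 the RTA-408 arrays were all above both unirradiated arrays. The vehicle difference of that day, 1.07, was the highest of the 36 genes and did not pass (limma, adjusted p = 0.44).

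Plk1 (TC0100002530.rn.2) encodes polo-like kinase 1, needed for spindle assembly and for the switch into anaphase. Its baseline range was 9.30 to 11.23, with a median of 10.78. On day -4 Plk1 read 10.65 and 11.50 in unirradiated skin, 7.37, 9.28 and 8.13 in irradiated vehicle skin and 10.37, 8.40 and 7.43 with RTA-408. The groups did not overlap, and the vehicle difference was -2.81 ± 0.64 (SE; limma, adjusted p = 0.00671). On day 1 it read 8.74 and 8.81, then 9.58, 8.90 and 8.38, then 8.22, 8.80 and 8.79, and on day 3 9.47 and 11.36, then 8.97, 8.92 and 8.59, then 9.27, 8.85 and 9.17. The irradiated arrays of day 3 lay within a narrow band under both unirradiated arrays, with a vehicle difference of -1.59 that did not pass (limma, adjusted p = 0.237). Day 7 values were 10.25 and 9.40, then 11.05, 11.06 and 9.66, then 11.03, 10.42 and 10.42, and day 14 values 11.26 and 10.76, then 11.32, 10.45 and 10.41, then 10.22, 9.92 and 10.60. Among the other genes of this role, cyclin A2 (Ccna2) was lower on day -4 by a difference of -3.04, cyclin B2 (Ccnb2) by -2.69 and the centrosome kinase Nek2 by -2.70. Foxm1, the transcription factor that drives the late cell cycle genes, read 6.43 and 7.06 without radiation and 4.48, 5.30 and 4.67 with it, where all 3 arrays were at the level of the negative controls. It was lower by at least 0.35 against that level, and its fitted difference had the smallest adjusted p of the 36 genes (limma, 0.000908).

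Aurka was the exception in this role. It encodes Aurora A, the centrosome kinase that the spindle protein TPX2 activates. On day -4 it read 8.47 and 8.22 in unirradiated skin, 8.61, 8.46 and 7.67 in irradiated vehicle skin and 8.43, 7.86 and 8.65 with RTA-408, a vehicle difference of -0.10 ± 0.38 (SE; limma, adjusted p = 0.928). The groups overlapped, while Tpx2 itself, at 11.01 and 11.46 against 8.25, 9.28 and 8.64, was lower by -2.51. On day 3 Aurka read 8.06 and 8.85, then 7.84, 6.91 and 7.13, then 7.07, 7.63 and 7.68. Those 6 irradiated arrays were all below both unirradiated arrays, and the day 3 vehicle difference of -1.16 did not pass (limma, adjusted p = 0.127).

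The kinetochore genes all passed on day -4. Nuf2 (TC1300001870.rn.2), a subunit of the NDC80 complex that grips microtubules, ranged from 7.18 to 8.29 at baseline, with a median of 7.96. Day -4 values were 8.31 and 9.19 without radiation, 6.07, 7.43 and 5.81 with radiation and vehicle and 7.97, 6.92 and 6.15 with RTA-408. The arms with and without radiation did not overlap, and the vehicle difference was -2.31 ± 0.50 (SE; limma, adjusted p = 0.00522). On day 1 it read 6.60 and 6.62, then 7.10, 6.89 and 6.59, then 4.94, 6.42 and 7.10, and on day 3 7.34 and 7.94, then 6.94, 6.75 and 6.52, then 7.21, 7.18 and 7.11. The day 3 irradiated arrays were again all below the unirradiated pair (vehicle difference -0.90, limma, adjusted p = 0.438). On day 7 it read 8.10 and 6.79, then 7.85, 8.21 and 7.47, then 8.37, 8.38 and 7.57, and on day 14 8.68 and 7.95, then 8.18, 7.37 and 7.82, then 7.50, 7.79 and 7.94. Its partners in the same complex, Ndc80 and Spc25, differed on day -4 by -2.48 and -1.74, and the outer kinetochore protein gene Cenpf by -2.63. Cenpa, the histone variant that marks centromeres, was at the negative control level in the irradiated vehicle arrays and lower by at least 0.10.

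In the spindle checkpoint, Mad2l1 (TC0400001073.rn.2) encodes MAD2, which holds CDC20 inactive until chromosomes are attached. Baseline arrays ranged from 7.66 to 9.35, with a median of 8.75. On day -4 Mad2l1 read 9.06 and 9.33, then 7.20, 8.20 and 7.16 with radiation and vehicle, then 8.90, 7.16 and 6.89 with RTA-408. Irradiated arrays were all below the unirradiated pair, and the vehicle difference was -1.68 ± 0.51 (SE; limma, adjusted p = 0.0373). Day 1 gave 7.54 and 7.51, then 7.83, 7.98 and 7.37, then 6.92, 7.31 and 7.55. Day 3 gave 7.39 and 8.74, then 7.53, 7.44 and 6.99, then 7.69, 7.59 and 7.55. Day 7 gave 9.15 and 6.98, then 9.06, 9.16 and 7.82, then 9.08, 9.14 and 8.55, with unirradiated replicate 2 alone below the baseline range. Day 14 gave 8.86 and 8.77, then 9.09, 8.51 and 8.66, then 7.98, 8.18 and 8.23.

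Bub1, the checkpoint kinase, passed on day -4 with a difference of -1.75, and the checkpoint kinase gene Ttk (MPS1) did not (-1.95, limma, adjusted p = 0.0616). Bub3 also did not pass. It encodes a checkpoint protein that cells also use outside mitosis, and it read 11.15 and 11.00 without radiation, 10.72, 10.83 and 10.66 with radiation and vehicle and 11.10, 10.40 and 10.56 with RTA-408 on day -4. The vehicle arrays were all below the unirradiated pair by a small step, -0.34 ± 0.26 (SE; limma, adjusted p = 0.509).

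**Figure D3:**
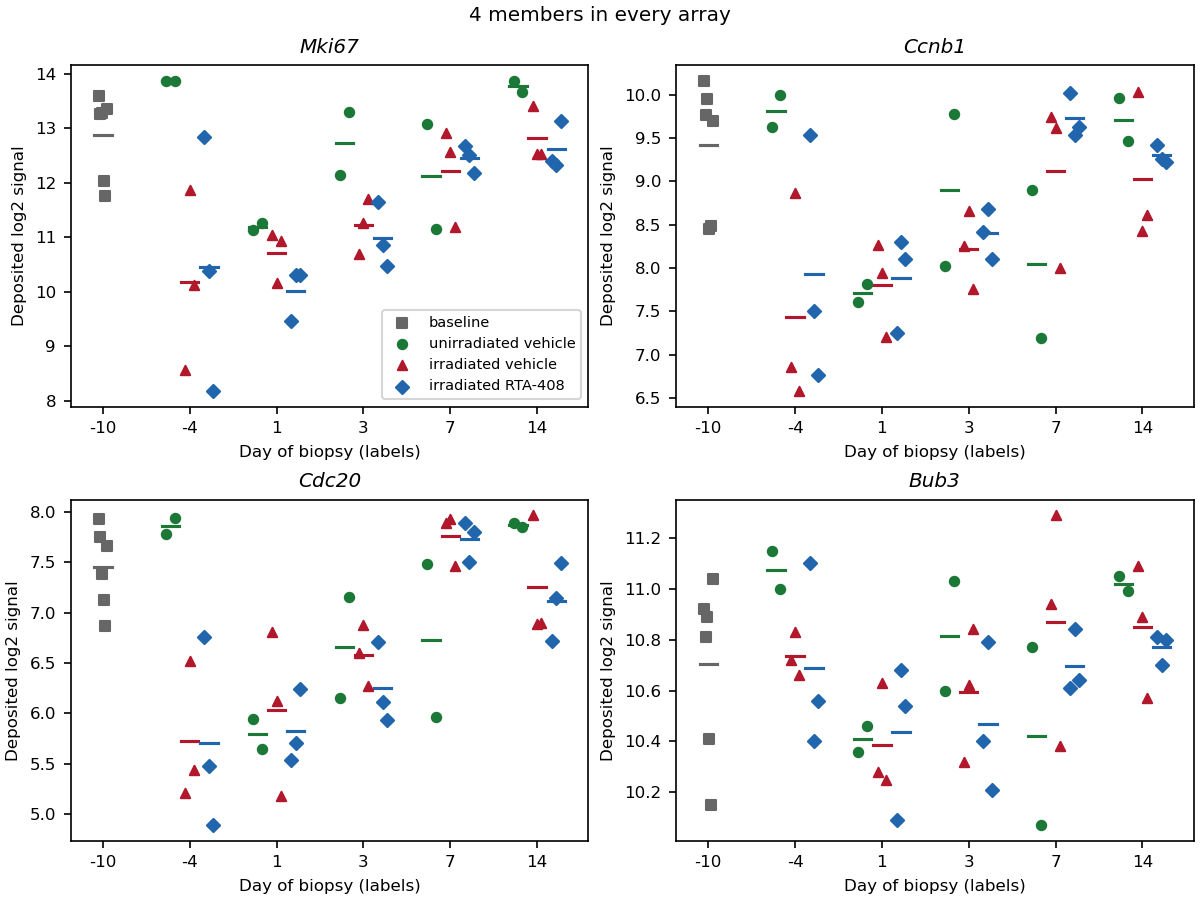
Deposited log2 signal (vertical axes, each with its own range) of Mki67, Ccnb1, Cdc20 and Bub3 in every array, by day and arm; points are arrays and short lines group means. Mki67, Ccnb1 and Cdc20 show the low irradiated arrays of day -4, the low arrays of all arms on day 1 and the higher irradiated arrays of day 7, and the axis of Bub3 covers a much smaller range.

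Among spindle proteins, Kif11 (TC0100003549.rn.2) encodes the kinesin Eg5, which pushes the spindle poles apart. It ranged from 9.0 to 10.06 at baseline, with a median of 9.66. On day -4 Kif11 read 10.42 and 10.25 in unirradiated skin, 7.25, 8.95 and 7.84 in irradiated vehicle skin and 9.17, 7.94 and 7.73 with RTA-408. Every irradiated array was more than 1 log2 unit below the unirradiated pair, and the vehicle difference was -2.32 ± 0.47 (SE; limma, adjusted p = 0.00349). On day 1 it read 8.18 and 7.86, then 8.66, 8.19 and 8.36, then 7.56, 7.87 and 8.63, and on day 3 8.61 and 9.81, then 8.31, 7.99 and 8.18, then 8.69, 7.68 and 7.98. On day 7 it read 9.49 and 7.83, then 9.38, 9.28 and 8.31, then 9.11, 9.35 and 9.05, and on day 14 9.80 and 9.61, then 10.09, 9.42 and 8.84, then 9.08, 9.20 and 9.64. The microtubule-binding protein gene Nusap1 differed by -2.67 on day -4. Kif2c, a kinesin that takes microtubules apart, was at the negative control level in the irradiated vehicle arrays and lower by at least 0.49. Dlgap5 (-1.52, limma, adjusted p = 0.0891) and Hmmr (-1.41, limma, adjusted p = 0.0504), both spindle assembly factors, did not pass.

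Birc5 (TC1000002017.rn.2) encodes survivin, the chromosomal passenger that takes Aurora B to the centromere. Its baseline arrays were close together, from 8.81 to 9.34, with a median of 9.05. On day -4 it read 9.32 and 10.16, then 7.42, 8.60 and 7.00 with radiation and vehicle, then 9.34, 8.64 and 6.49 with RTA-408. Vehicle arrays did not overlap with the unirradiated pair, whereas RTA-408 replicate 1 did, and the vehicle difference was -2.07 ± 0.50 (SE; limma, adjusted p = 0.00969). Day 1 gave 7.52 and 7.99, then 8.07, 7.86 and 7.84, then 7.66, 7.98 and 8.27, and day 3 gave 8.37 and 9.27, then 8.59, 8.66 and 8.42, then 8.53, 8.73 and 7.94. On day 1 all 8 arrays were below the lowest baseline array. Day 7 gave 9.21 and 8.25, then 9.15, 10.16 and 9.03, then 9.90, 9.50 and 9.50, and day 14 gave 9.53 and 9.10, then 9.64, 8.88 and 8.77, then 9.53, 9.80 and 8.99. Aurkb (Aurora B) and Cdca8 (borealin), the other passengers, differed on day -4 by -1.68 and -0.99 and did not pass (limma, adjusted p = 0.082 and 0.181).

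Cdc20 (TC0500003455.rn.2) encodes the activator of the anaphase-promoting complex. Baseline values ranged from 6.87 to 7.93, with a median of 7.52. On day -4 Cdc20 read 7.78 and 7.94 in unirradiated skin, 5.21, 6.52 and 5.44 in irradiated vehicle skin and 6.76, 5.48 and 4.89 with RTA-408, all 6 irradiated arrays being below every baseline array too. Of these, vehicle replicates 1 and 3 and RTA-408 replicates 2 and 3 were under their negative control medians (6.49, 6.42, 6.10 and 6.43). The vehicle difference was -2.13 ± 0.47 (SE; limma, adjusted p = 0.00616). On day 1 it read 5.95 and 5.65, then 6.81, 6.12 and 5.18, then 5.54, 5.71 and 6.24, and on day 3 6.15 and 7.16, then 6.60, 6.88 and 6.27, then 6.71, 6.11 and 5.94. On day 7 it read 7.48 and 5.97, then 7.89, 7.93 and 7.46, then 7.89, 7.50 and 7.80, and on day 14 7.89 and 7.85, then 7.97, 6.89 and 6.90, then 6.72, 7.15 and 7.49. The 6 irradiated arrays of day 7 lay from 7.46 to 7.93, within the baseline range, and unirradiated replicate 2 lay far below them. That array was also under its negative control median of 6.25, and on day 1 all unirradiated and RTA-408 arrays were under theirs. Of the other genes in the role of the anaphase and ubiquitin machinery, Cdca3 (-2.31) and the ubiquitin-conjugating enzyme gene Ube2c (-1.35) passed on day -4. Pttg1 (securin), with its irradiated vehicle group at the negative control level, and Espl1 (separase, -0.56) did not pass (limma, adjusted p = 0.193 and 0.462).

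Ect2 (TC0200003382.rn.2) encodes the exchange factor that switches on RhoA for the cleavage furrow. It ranged from 7.02 to 8.87 at baseline, with a median of 8.30. On day -4 Ect2 read 8.88 and 9.08, then 6.33, 7.14 and 5.99 with radiation and vehicle, then 7.59, 6.34 and 6.08 with RTA-408, with no overlap and a vehicle difference of -2.50 ± 0.52 (SE; limma, adjusted p = 0.00442). Day 1 gave 7.37 and 6.28, then 7.38, 7.50 and 6.97, then 5.85, 6.60 and 7.34. Day 3 gave 7.71 and 8.38, then 7.85, 6.83 and 7.57, then 7.36, 7.85 and 7.55. Day 7 gave 8.45 and 7.35, then 8.84, 8.74 and 7.61, then 7.89, 8.59 and 7.69, and day 14 gave 9.18 and 8.99, then 9.14, 7.72 and 7.96, then 8.27, 8.43 and 8.81. From day 1 to day 7 the arms overlapped. The other cytokinesis genes, the spindle midzone proteins Prc1, Kif20a and Kif23, passed on day -4 with differences of -2.18, -1.60 and -1.10.

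Promoter sequences are shown for Cdc20, Kif11, Ect2 and Plk1, the members with the smallest p for a radiation difference that depended on the day, since late cell cycle genes are known to share 2 promoter elements. These are the cell cycle genes homology region, CHR (searched as TTTGAA or TTCGAA), bound by MuvB complexes, and the CCAAT box, bound by NF-Y. Each is 200 bases of the RefSeq entry in build GRCr8, 170 before the annotated start of transcription and 30 after it, on the gene's own strand, with CHR and CCAAT matches on either strand in capitals (ATTGG is CCAAT on the other strand). Cdc20 is at chr5:137255770-137255969 (minus strand), Kif11 at chr1:244536697-244536896 (plus strand), Ect2 at chr2:111966597-111966796 (minus strand) and Plk1 at chr1:186147488-186147687 (plus strand).
Cdc20: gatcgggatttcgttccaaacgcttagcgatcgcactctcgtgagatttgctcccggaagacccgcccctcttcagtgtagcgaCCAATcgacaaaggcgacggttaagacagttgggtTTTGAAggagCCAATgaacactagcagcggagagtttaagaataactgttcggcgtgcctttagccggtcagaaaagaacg
Kif11: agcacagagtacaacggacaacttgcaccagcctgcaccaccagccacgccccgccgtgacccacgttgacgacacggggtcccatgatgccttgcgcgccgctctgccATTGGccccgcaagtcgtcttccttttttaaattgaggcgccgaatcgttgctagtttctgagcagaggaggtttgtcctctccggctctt
Ect2: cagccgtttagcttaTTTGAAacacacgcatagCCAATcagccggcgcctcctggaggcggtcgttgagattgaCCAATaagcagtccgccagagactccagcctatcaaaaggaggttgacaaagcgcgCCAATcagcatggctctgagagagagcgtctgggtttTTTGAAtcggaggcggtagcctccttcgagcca
Plk1: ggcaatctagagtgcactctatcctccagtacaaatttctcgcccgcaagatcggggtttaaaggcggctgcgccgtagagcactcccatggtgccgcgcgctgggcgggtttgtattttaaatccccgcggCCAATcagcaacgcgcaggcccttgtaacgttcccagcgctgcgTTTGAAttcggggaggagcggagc
The Cdc20 window has 1 CHR match between 2 CCAAT boxes, Ect2 has 2 CHR and 3 CCAAT matches, Plk1 has 1 of each with the CHR just after the start, and Kif11 has 1 CCAAT and no CHR match. The motifs do not overlap each other in letters.

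The full windows of 300 bases (250 before the start, 50 after) were searched for the 39 of 44 members that the RefSeq table holds. For Kif2c, which has 2 entries, the first was used. A CHR match was found in 27 of the 39 members (69.2%) against 19.7% of all 33469 promoters of the table, a CCAAT match in 29 (74.4%) against 37.5%, and both in 22 (56.4%) against 7.95%. With TTTGAA alone the CHR count was 26. Among members that passed on day -4, 16 of 23 had a CHR match, and among those that did not pass, 6 of 8. A match says only that these letters occur in the window.

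On the later days none of the 36 genes passed in the radiation comparison, which called 2.1%, 1.3%, 4.02% and 6.96% of all features on days 1, 3, 7 and 14. The smallest adjusted p among the members was 0.436, 0.127, 0.235 and 0.289 (limma), and 0, 5, 1 and 0 members had an unadjusted p under 0.05. On day 1 the median difference was 0.02, with 19 genes above zero and 17 below. On day 3 it was -0.68, with 35 genes below zero, and Ube2c alone above (0.47). On day 7 it was 0.36 with 29 genes above zero, and on day 14 -0.43 with 33 below.

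The medians of days 3 and 7 turned on the unirradiated arrays, which stood apart on both days. On day 3 the median was -1.36 without unirradiated replicate 1 and -0.14 without replicate 2. On day 7 it was 1.05 without replicate 1 and -0.23 without replicate 2. The day 1 median, near zero, turned to -0.12 without irradiated vehicle replicate 1. In the F-test of whether the radiation difference changed over the 5 days, only Cdc20 of the 36 passed (limma, adjusted p = 0.0416), where 2.16% of all features did, and 21 had an unadjusted p under 0.05. The member count was 3 without unirradiated replicate 1, 0 without any other single replicate number of the 2 arms, and 0 with the spike-in set as a block.

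The drug comparison set RTA-408 against vehicle in irradiated skin, 3 arrays against 3. None of the 36 genes passed on any day, and none had an unadjusted p under 0.05 (limma), where 0.0474%, 0.0733%, 0.00431%, 0% and 0% of all features were called on days -4, 1, 3, 7 and 14. Median differences were 0.23, -0.23, -0.13, 0.14 and -0.02. Single differences ran from -0.72 for Ttk on day 1 to 0.62 for Nusap1 on day 14, with standard errors between 0.23 and 0.73 that limit what could be seen. For Mki67 they were 0.28, -0.69, -0.23, 0.23 and -0.20 in order of day, each ± 0.73 (SE). The sign of the median turned with single arrays on 4 of the 5 days. On day -4 it became -0.42 without RTA-408 replicate 1, the high array of that group, and -0.09 without vehicle replicate 1. On day 3 it became 0.06 without RTA-408 replicate 3, on day 7 -0.17 without vehicle replicate 3, and on day 14 0.24 without vehicle replicate 1 and 0.07 and 0.02 without RTA-408 replicates 1 and 2. On day 1 it stayed between -0.36 and -0.09 without single arrays. In the F-test of a drug difference that changed over the days, 0 of the 36 passed (0 unadjusted), against 0.0129% of all features.

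Irradiated skin with RTA-408 was also set against the same unirradiated arrays, which both comparisons share. On day -4, 18 of the 36 genes were lower and 0 higher, where 2.08% of all features were called lower, with a median of -1.77. Mki67 differed by -3.41, Ccna2 by -2.73, Cdca3 by -2.71, Plk1 by -2.34, Ect2 by -2.31 and Cdc20 by -2.15. The count was 32 without RTA-408 replicate 1, 9 and 0 without replicates 2 and 3, 1 and 0 without unirradiated replicates 1 and 2, 8 with the spike-in set as a block, and 0 within set I and with these groups alone. On days 1, 3, 7 and 14 the count was 0, where 1.5%, 2.29%, 5.13% and 2.8% of all features were called, with medians of -0.14, -0.74, 0.51 and -0.54 and with 1, 7, 3 and 2 members at an unadjusted p under 0.05 (limma). On day 14, 18 of 36 genes had all 3 RTA-408 arrays below both unirradiated arrays, as 16% of all features did. The median of day -4 was -2.35 without RTA-408 replicate 1 and -1.22 without replicate 3, and that of day 1 was 0.09 without RTA-408 replicate 1. Without unirradiated replicates 1 and 2 the medians were -1.38 and -0.25 on day 3 and 1.14 and -0.19 on day 7, and on day 14 they ran from -0.64 to -0.28 without single arrays.

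Against the 6 baseline arrays, irradiated vehicle skin had 22, 17 and 7 of 36 genes lower on days -4, 1 and 3 and 0 higher, where 4.26%, 4.65% and 3.97% of all features were called lower. Median differences were -1.41, -1.14 and -1.02. On day 7 only Foxm1, at the negative control level on that day, was lower (by at least 0.50, limma, adjusted p = 0.0153), where 6.06% of features were, and the median was -0.07. On day 14 none passed, where 15.4% of features were called in either direction, with a median of -0.01. Mki67 differed from baseline by -2.70 on day -4, -2.17 on day 1 and -1.66 on day 3, and the last did not pass (limma, adjusted p = 0.102). Aurka, level on day -4, was lower on day 3 by a difference of -1.14 (limma, adjusted p = 0.0115).

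With RTA-408 the counts of lower genes were 12, 25, 11, 1 and 0 on days -4, 1, 3, 7 and 14, with medians of -1.25, -1.46, -1.07, 0.05 and -0.01. Of all features, 1.57%, 4.79%, 4.36% and 6.67% were called lower on days -4, 1, 3 and 7, and 10.2% in either direction on day 14. On day 1 Mki67 differed by -2.86, Ttk by -2.23, Ccnb2 by -2.05 and Dlgap5 by -1.99, all passing. On day 3 Aurka was lower by a difference of -0.97 (limma, adjusted p = 0.0316), and the gene lower on day 7 was again Foxm1, by at least 0.61. Both irradiated arms share the baseline arrays, so their counts are not independent.

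In unirradiated vehicle skin, 0, 1, 0, 0 and 0 of the 36 genes passed against baseline on days -4, 1, 3, 7 and 14. The one was Foxm1 on day 1, at the negative control level and lower by at least 0.15 (limma, adjusted p = 0.045). Called were 0.0173% of all features on day -4, 0.0431% as lower on day 1, and 0%, 2.71% and 0% on days 3, 7 and 14. Medians were 0.56, -1.21, -0.25, -0.51 and 0.41. On day 1 the group mean of all 36 genes was below that of baseline, and 26 had an unadjusted p under 0.05 (limma). For 24 genes both arrays lay below all 6 baseline arrays, as 4.14% of all features did. Against its own baseline array, the member mean went from 7.90 to 7.40 in rat 319 and from 8.84 to 7.35 in rat 318. The unirradiated arrays of day 1 lie in the same spike-in set as baseline, and the skin had been injected and biopsied but not irradiated. On days -4, 3, 7 and 14, 3, 0, 3 and 1 members had an unadjusted p under 0.05.

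The counts against baseline depended on single arrays and on the set. Summed over the 5 days there were 47 calls in irradiated vehicle skin, 13 and 10 without vehicle replicates 1 and 3 and 27 without baseline replicate 1. With RTA-408 there were 49, and 18 and 27 without replicates 2 and 3, and 28, 31 and 32 without baseline replicates 1, 3 and 6. In unirradiated skin the 1 call became 0 without either unirradiated replicate or baseline replicates 1, 3 or 6, and 2 without baseline replicate 2. With the spike-in set as a block the sums were 21 and 20 in the irradiated arms. The medians of days 3, 7 and 14 then became -0.28, 0.58 and 0.59 with vehicle, -0.27, 0.67 and 0.72 with RTA-408, and 0.46, 0.26 and 1.08 in unirradiated skin.

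**Figure D4:**
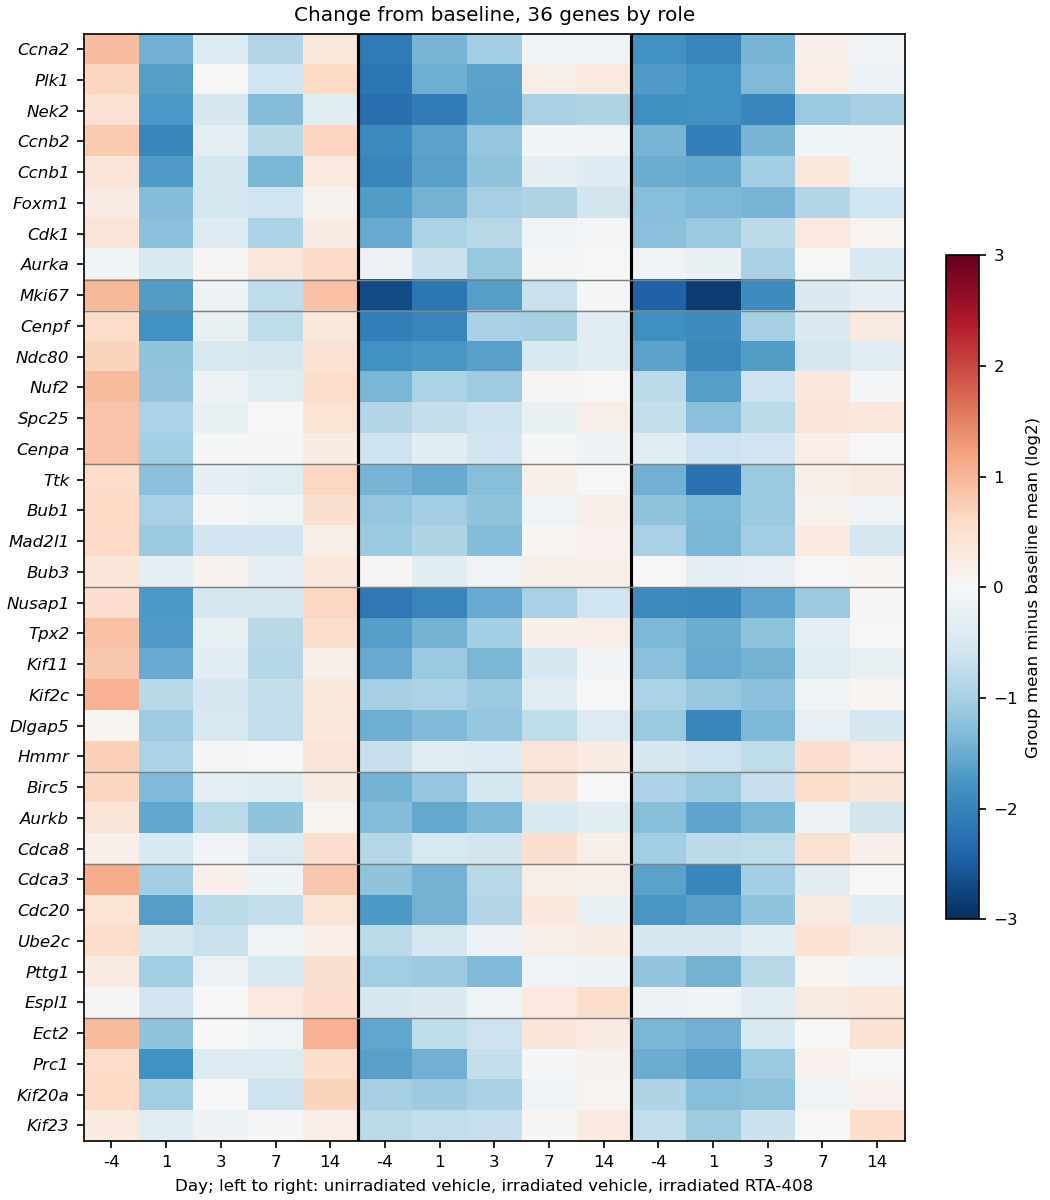
Group mean minus baseline mean (colour, log2) for each of the 36 genes (rows, grouped by role) in 3 arms on 5 days (columns). The irradiated arms are blue from day -4 to day 3 and near white on days 7 and 14, the unirradiated arm is blue on day 1, and the rows of Aurka, Bub3 and Espl1 are pale on day -4.

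Day 7 was set against day 3 within each arm, a comparison chosen after the values were seen. In irradiated vehicle skin 35 of 36 genes were higher in mean on day 7 than on day 3, with a median of 0.88, and with RTA-408 all 36 were, with a median of 1.10. No gene passed in either arm (limma, 13 and 25 with an unadjusted p under 0.05), where 3.25% and 0.737% of features were called. For 19 and 29 genes every array of day 7 lay above every array of day 3, as 10.9% and 9.56% of all features did. The smallest adjusted p values were those of Aurka with vehicle (1.11, limma, adjusted p = 0.0659) and Cdc20 with RTA-408 (1.48, limma, adjusted p = 0.0953). With these 2 groups alone in the fit, 4 and 10 genes passed. In unirradiated skin 27 genes were lower in mean on day 7, with a median of -0.22 and 0 calls (0 with an unadjusted p under 0.05, limma), where 0.0733% of features were called. Replicate 2 of these groups is rat 318 on day 3, with a member mean of 8.86, and rat 317 on day 7, with 7.45. In rat 319, the only unirradiated rat on both days, the member mean was 7.75 on day 3 and 8.72 on day 7.

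In the F-tests over the 5 days, 11 genes changed within irradiated vehicle skin, where 14.2% of all features did, and 11 with RTA-408, where 6.26% did. Cdc20 (limma, adjusted p = 0.00304 and 0.00414), Kif23 (0.00989 and 0.00159), Plk1 (0.00354 and 0.0403), Birc5 (0.0149 and 0.0234), Ect2 (0.0166 and 0.0159), Bub1 (0.0203 and 0.0257) and Mki67 (0.044 and 0.0422) passed in each of the irradiated arms. In unirradiated skin 0 passed (limma, smallest adjusted p = 0.061 for Kif11), although 25 of 36 had an unadjusted p under 0.05, where 1.13% of features were called. The counts were 1, 8 and 2 without vehicle replicates 1, 2 and 3, and 4, 0 and 3 without RTA-408 replicates 1, 2 and 3.

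Other genes of the cell cycle were counted in lists that leave out the members. Of 56 further mitosis genes measured, 25 were lower and 1 higher in irradiated vehicle skin on day -4, with a median of -1.14. Of all features, 4.19% were called lower and 749 of 23188 higher. Kif22, a chromosome-moving kinesin, differed by -2.33 and the kinetochore protein gene Knstrn by -1.24. The count of 25 was 10, 31 and 13 without irradiated vehicle replicates 1, 2 and 3 and 2 and 1 without unirradiated replicates 1 and 2. The one that rose was Gtse1, a microtubule-binding protein gene that p53 is known to induce. Its group means were 8.17 in irradiated against 6.59 in unirradiated skin on day -4 (1.58 ± 0.34 SE; limma, adjusted p = 0.00536), and it was also higher by at least 1.91 on day 1, when the unirradiated arrays were at the negative control level, and by 2.37 on day 3 and 1.15 on day 7. The call of day -4 was lost without either unirradiated array. Of 38 DNA replication genes 10 were lower and 0 higher on day -4 (median -1.02), where 4.19% of all features were called lower. The 10 included the thymidine kinase gene Tk1 (-3.47) and the replication helicase subunit Gins3 (-1.76). Without irradiated vehicle replicates 1 and 3 that count was 2 and 3, and without unirradiated replicates 1 and 2 it was 2 and 0. On day 7 the ribonucleotide reductase subunit Rrm2 was higher by 2.39 (limma, adjusted p = 0.0224), the 1 of the 38 that passed. Of all 23188 features, 623 were called higher on that day.

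Of 16 measured cell cycle brakes and p53 targets, 2, 3, 2, 4 and 2 were higher on days -4, 1, 3, 7 and 14 and 1 was lower, on day 7. Of all 23188 features, 749, 279, 152, 623 and 1027 were called higher on those days. Median differences of the list were 0.02, 0.24, -0.12, 0.54 and 0.19. Most of its genes did not pass, and the list was not refitted without single arrays. Mdm2, the p53-induced inhibitor of p53, was higher on all 5 days, by 2.14, 2.47, 1.95, 1.58 and 1.15. Cdkn1a, which encodes the CDK inhibitor p21, was higher by 2.62 on day 1 and 2.66 on day 7, and Ccng1, another p53 target, by 2.78 on day -4 and 3.77 on day 1. On days 1, 3 and 7 cyclin D1 (Ccnd1), the cyclin of early G1, was higher by 1.45, 1.91 and 1.32. It stood in a list of 13 measured genes of G1 cyclins, E2F factors and MuvB subunits, of which E2f3 and E2f4 were lower on day -4.

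Markers of other cells moved on the same days, and their part in the results on mitosis genes was not tested. In the radiation comparison of day -4, 4.19% of all features were called lower and 749 of 23188 higher. Of 10 measured hair matrix and shaft markers 7 were lower on day -4 in the radiation comparison and 0 higher, with a median of -5.58 (3 lower without vehicle replicate 1, and 1 and 0 without unirradiated replicates 1 and 2). Their mean was 15.72 and 15.69 in unirradiated skin, 7.02, 11.31 and 9.59 with vehicle and 14.06, 11.58 and 5.76 with RTA-408. The array with the highest hair markers in the vehicle group, replicate 2, and that in the RTA-408 group, replicate 1, are those with the highest mitosis genes. RTA-408 replicate 1 also had the lowest muscle marker mean of that day, 7.09. Of 5 measured basal keratinocyte markers 3 were higher on day -4, among them Itgb4 (2.77) and Krt14 (1.11), and 0 lower (1 to 3 higher without single arrays, the fewest without unirradiated replicate 1).

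On day 7 the hair marker mean was 5.72 to 5.99 across the 6 irradiated arrays, near their negative control medians. The mitosis mean of these arrays was 7.84 to 8.77. Unirradiated arrays of that day had hair means of 8.60 and 5.92 and mitosis means of 8.72 and 7.45. On day 14, vehicle replicates 2 and 3 had hair means of 6.29 and 5.40 and mitosis means of 8.27 and 8.20. Without radiation, 7 of 10 hair markers were lower on day 7 than at baseline, where 428 of 23188 features were. In the radiation comparison of day 7 no hair marker passed. In that comparison 623 of 23188 features were called higher. Both measured wound keratinocyte markers, Krt17 (2.63) and Il36a (by at least 2.77), were higher, as were 5 of 10 macrophage and monocyte markers, such as Cd68 (3.00). Only 2 of 6 genes of the neutrophil list passed, S100a8 (6.29) and S100a9 (6.68). Of the macrophage calls of day 7 none were left without vehicle replicate 3 or either unirradiated array, and without unirradiated replicate 2 neither the wound nor the neutrophil genes passed. On day 14 all 10 macrophage markers and 5 of 10 T and NK cell markers were higher, where 1027 of 23188 features were. Vehicle replicate 3 stood apart in these lists. Its macrophage marker mean was 15.33, against 10.47 and 11.57 in the other vehicle arrays and 8.24 and 9.21 in unirradiated skin. Its T and NK cell mean was 7.40, against 5.00, 5.86, 4.67 and 4.69 in those arrays, each below the negative control median of its array. Its basal keratinocyte mean was the lowest of that comparison, 13.31, and its mitosis mean 8.20. Without it 7 macrophage and 1 T and NK cell marker passed, and without unirradiated replicates 1 and 2 the counts were 0 and 9 and 0 and 2. Leaving out arrays in these lists was chosen after the values were seen. On day 1 the unirradiated arrays, with low mitosis genes, had hair marker means of 11.08 and 14.58, against a baseline range of 11.51 to 15.68, and 1 of them, replicate 1, had a muscle marker mean of 8.96.

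**Figure D5:**
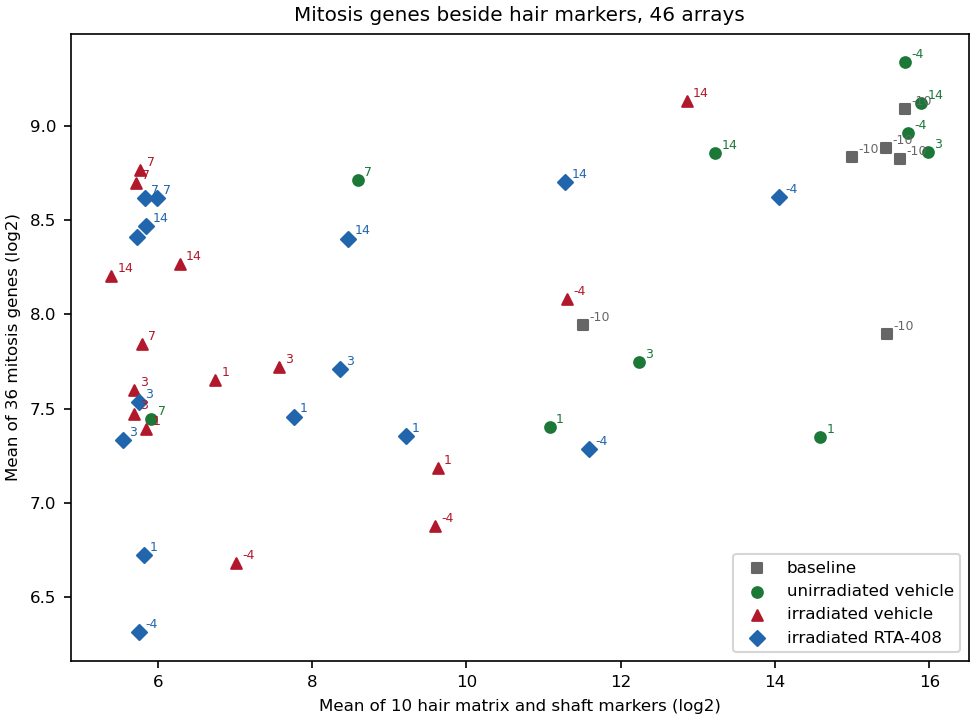
Mean of the 36 mitosis genes (vertical axis) against the mean of 10 hair matrix and shaft markers (horizontal axis), both deposited log2 signals, in 46 arrays; numbers give the day of biopsy. Irradiated arrays of day 7 lie at the left edge, with hair marker means of at most 5.99, and between 7.84 and 8.77 in height. Unirradiated replicate 2 of day 7 also lies there, at 5.92, with a height of 7.45. Arrays of the same rats are not independent points.

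Across the 46 arrays most members moved alike. The correlation of a member with the mean of the other 35 was highest for Ccnb2 (r = 0.98), followed by Tpx2 and Plk1 (0.96 each), and lowest for Aurka (0.48), Bub3 (0.70) and Espl1 (0.76). This is a description over arrays that share rats and one group structure, and no p is given.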

How the data were processed

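The authors deposited 1 table of log2 signals for 46 Clariom S arrays. Per the labels' protocols, 100 ng RNA (mean RIN 7.15) gave 2.5 ug of labelled cDNA per array. The normalization method: not given in the sources used here. Deposited log2 signals reach 19.66 to 19.93, above the 16 of a 16-bit scanner, so no folds are given. Of the features, 1646 controls were left out and 23188 tested, of which 15049 have 1 symbol in the supplied annotation and 8139 none; each measured member has 1 feature. A limma 3.58.1 model (R 4.3.3) with 1 mean for each of 16 groups had 30 residual degrees of freedom, p was adjusted by Benjamini-Hochberg per comparison and day, and changes over days used moderated F-tests. The script was tested on simulated data. A group with all arrays at or below the median of 1153 negative controls (5.78 to 6.52) has only a bound. In other groups, values under that median were used as deposited.

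Members, roles and lists were chosen with earlier results of these data known. Values in every array are given for Mki67, Cdk1, Ccnb1 (by the same rule Top2a, which has no feature) and the member of each role with the smallest p of the radiation F-test, other members by difference (array values of Aurka, Bub3, Foxm1 and Tpx2 were added after they were seen), and lists by up to 3 genes of smallest p. For unirradiated replicate 2 of day 1 a description names day 3, and the title (day 1) was followed. Same-numbered samples of a day did not deviate together (median r = -0.03, 8 of 35 pairs over 0.1). Samples of 1 rat on different days are the same animal, yet their deviations were as weakly related (median r = 0.02, 102 pairs).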

Additional observations from a re-analysis of the deposited data

Results flagged for a closer look

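Espl1 in the baseline arrays had 1 array far from the others: replicate 5, at 6.13, lay below the next by 0.66 of the whole range of the group. The baseline group of each of the 36 genes was tested in this way, 1 stood out, and chance marks about 1 in 20. For Cdc20 the radiation difference itself changed between days (limma F-test, adjusted p = 0.0416). It was -2.13 on day -4 and, at the other end, 1.04 on day 7, where unirradiated replicate 2 read 5.97. That value was under the negative control median of its array, as were those of irradiated vehicle replicates 1 and 3 on day -4. Cdc20 was the 1 of 36 genes that passed, where 2.16% of all features did. With the spike-in set as a block, without unirradiated replicate 2 and without each irradiated vehicle replicate 0 passed, and without unirradiated replicate 1 the count was 3.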

How the results depend on the processing

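None of the 27 differences of day -4 that passed in the radiation comparison changed sign under any alternative run. Of these 27 calls, 27 were kept with quantile normalization, with the dimmest features left out, with array weights and with the rat as a replicate block, 26 with the replicate number as a block, 21 with the spike-in set as a block and 19 with the compared groups alone. The count was 8 within set I and 0 to 31 without single arrays. RTA-408 against unirradiated skin on day -4 gave 32 with array weights, 8 with the spike-in block, 0 with the groups alone, 0 within set I and 0 to 32 without single arrays, and on day 3 0 to 1. Day 7 against day 3 gave 3 with array weights, 4 with the groups alone and 0 to 1 without single arrays with vehicle, and 1 and 10 for the first 2 of these with RTA-408. The sum against baseline with vehicle was 72 with array weights, 71 with the replicate number as a block, 21 with the spike-in block and 10 to 61 without single replicates. With RTA-408 it was 76 with the replicate block, 20 with the spike-in block and 18 to 66 without single replicates, and in unirradiated skin 5 with the replicate block, 0 with the groups alone and 0 to 2. The radiation F-test gave 3 with the dimmest features left out, 15 with array weights, 3 with the replicate block, 0 with the spike-in block and 0 to 3 without single replicates. The F-tests within arms gave 23 (vehicle), 25 (RTA-408) and 10 (unirradiated) with array weights, 4 in unirradiated skin with the replicate block, and 1 to 8 and 0 to 4 without single replicates of the irradiated arms. The replicate numbers did not pair the samples, and the rat as a block moved no count by over 1.5 times. Causes were not tested. The mean over features of a gene was not run, since each member has 1. The number of arrays, 2 or 3 a group, limits the precision.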
